A study of Drosophila melanogaster with 2 samples.

Results

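The 10 genes described here, Dll, dac, Lim1, bab1, bab2, bi, ap, B-H1, B-H2 and nub, encode transcription factors that pattern the limbs of Drosophila melanogaster, and they were chosen for that role, with earlier results of these data known, by a rule that uses no measured value. They are 10 of 18277 annotated genes, and a summit, the highest position of a peak, was given to a gene when it lay in its span in dm6 or within 1 kb of it. By this rule the 10 genes held 17 of the 2593 thresholded peaks, 183 of the 30000 relaxed peaks called on pooled reads, 204 of the 30000 relaxed peaks of replicate 2 and 136 of the 30000 of replicate 3. The data were chromatin immunoprecipitation followed by sequencing (ChIP-seq) of whole embryos, males and females together, aged 0 to 16 h. All embryos came from a transgenic line that stably expressed the zinc finger protein Jing with green fluorescent protein (GFP) at its C terminus, and the tagged protein was precipitated with an antibody against GFP. The only group, Jing-GFP embryos, had 2 biological replicates, numbered 2 and 3 in the labels. The sources used here do not say what drives the transgene or whether the line also carries untagged jing. There was thus no comparison between conditions, and the values below describe where the tagged protein was found at these genes.

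A fly limb is built along a proximal to distal axis, and transcription factors expressed in successive domains of the growing disc set the fate of each level. In the leg, Dll specifies distal and dac intermediate fates, while bab1, bab2, Lim1, B-H1 and B-H2 act in the tarsal region at the tip. In the wing, ap gives dorsal identity, nub acts in the blade and hinge, and bi (also called omb) is a target of the Dpp signal. The gene jing is itself known to be required for the proximal to distal axis of the leg and for wing development, and its product is related to vertebrate AEBP2, a partner of Polycomb repressive complex 2. Limb primordia make up a small part of a whole embryo, so a strong signal in few cells and a weak one in many cannot be told apart here. The roles above are those in limbs, and a peak from whole embryos cannot be assigned to limb cells.

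The sequences under the 8 strongest peaks of the members on X, 2L and 3L show the bases from which the counts of short motifs below were made. Each is the plus strand of the Release 6 assembly (RefSeq, dm6 coordinates, 1-based), 200 bases around the summit, in lower case. Capitals mark matches on either strand to 8 short motifs: the homeodomain core TAATTA, the GATA factor site GATAAG, the GAGA factor repeat GAGAGAG, the repeat bound by Combgap GTGTGTGT, the core of the Pho site GCCAT, the DRE TATCGATA, the Zelda site CAGGTAG and the AP-1 site TGANTCA. A match on the minus strand appears as its reverse complement, and matches may overlap each other.

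Lim1 start site, chrX:8805785-8805984: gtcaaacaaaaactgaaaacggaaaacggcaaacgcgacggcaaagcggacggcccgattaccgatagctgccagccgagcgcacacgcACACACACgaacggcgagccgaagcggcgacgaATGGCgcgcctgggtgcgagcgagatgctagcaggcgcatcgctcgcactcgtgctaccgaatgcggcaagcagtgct

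Lim1 intron, chrX:8774136-8774335: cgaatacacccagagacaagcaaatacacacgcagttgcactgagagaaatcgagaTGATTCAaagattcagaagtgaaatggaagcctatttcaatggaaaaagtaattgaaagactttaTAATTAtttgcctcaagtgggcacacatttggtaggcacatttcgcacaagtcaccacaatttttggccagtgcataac

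bi intron, chrX:4446164-4446363: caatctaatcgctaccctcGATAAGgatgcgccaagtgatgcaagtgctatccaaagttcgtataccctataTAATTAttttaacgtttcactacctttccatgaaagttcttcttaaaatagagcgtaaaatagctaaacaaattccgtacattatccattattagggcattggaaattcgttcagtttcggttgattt

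bab2 start site, chr3L:1177140-1177339: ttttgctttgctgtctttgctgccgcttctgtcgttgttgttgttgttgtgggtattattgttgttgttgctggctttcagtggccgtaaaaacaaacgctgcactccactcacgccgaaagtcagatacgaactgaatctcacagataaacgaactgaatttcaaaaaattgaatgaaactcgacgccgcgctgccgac

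B-H1 start site, chrX:17397187-17397386: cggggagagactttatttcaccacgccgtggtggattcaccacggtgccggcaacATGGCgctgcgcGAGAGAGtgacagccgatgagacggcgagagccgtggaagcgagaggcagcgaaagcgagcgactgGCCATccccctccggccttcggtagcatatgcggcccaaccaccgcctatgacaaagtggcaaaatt

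dac start site, chr2L:16485763-16485962: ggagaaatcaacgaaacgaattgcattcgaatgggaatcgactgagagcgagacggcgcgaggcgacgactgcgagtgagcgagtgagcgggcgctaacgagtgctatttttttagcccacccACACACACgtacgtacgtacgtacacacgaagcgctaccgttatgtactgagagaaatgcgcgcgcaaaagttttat

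dac upstream site, chr2L:16486422-16486621: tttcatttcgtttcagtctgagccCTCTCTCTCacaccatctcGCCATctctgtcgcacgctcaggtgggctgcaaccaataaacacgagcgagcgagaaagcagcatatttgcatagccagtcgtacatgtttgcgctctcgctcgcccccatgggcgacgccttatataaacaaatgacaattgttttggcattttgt

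bab1 intron, chr3L:1086332-1086531: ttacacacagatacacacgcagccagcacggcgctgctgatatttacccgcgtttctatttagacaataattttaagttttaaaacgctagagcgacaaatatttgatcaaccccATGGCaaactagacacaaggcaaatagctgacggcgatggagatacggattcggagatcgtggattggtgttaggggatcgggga

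The window at the Lim1 start site holds a run of CA repeats and 1 match to the Pho core, and the windows in the introns of Lim1 and bi each hold a homeodomain core. The B-H1 window holds a GAGA repeat and 2 matches to the Pho core. The dac upstream window holds a GAGA repeat counted as 2 overlapping matches, and the bab2 window holds none of the 8 motifs.

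Of the 10 genes, 9 had a thresholded summit and B-H2 had none. In Lim1 there were 4, in bi 3, in dac, bab1 and bab2 2 each, and in Dll, ap, B-H1 and nub 1 each. Long genes hold more peaks, and the members are long, at 5.80 to 72.8 kb with a median of 29.1 kb. The share with a thresholded summit was 13.2% over all annotated genes, 33.2% over the 2911 protein-coding genes whose span lies between the shortest and the longest member, and 48.3% over the 532 from the median span of the members to the longest. A count of 9 of 10 (95% Wilson interval 59.6% to 98.2%) lies above each of these shares. No test was made of that difference, since the genes were picked with earlier results of these data known. At least 2 thresholded summits were found in 5 of the 10 genes, against 11.6% of the protein-coding genes of the same span range. Of these 5, bi, bab1, Lim1 and bab2 span 36.8 to 72.8 kb and dac 19.5 kb. Among the thresholded peaks above the median signal of that list, 4 of the 10 (Lim1, Dll, bi and bab2) had a summit, against 20.8% of the protein-coding genes of the span range. The shares of 11.6% and 20.8% were not computed for the 532 longer genes alone, so the part of length in these gaps was not tested.

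**Figure D1:**
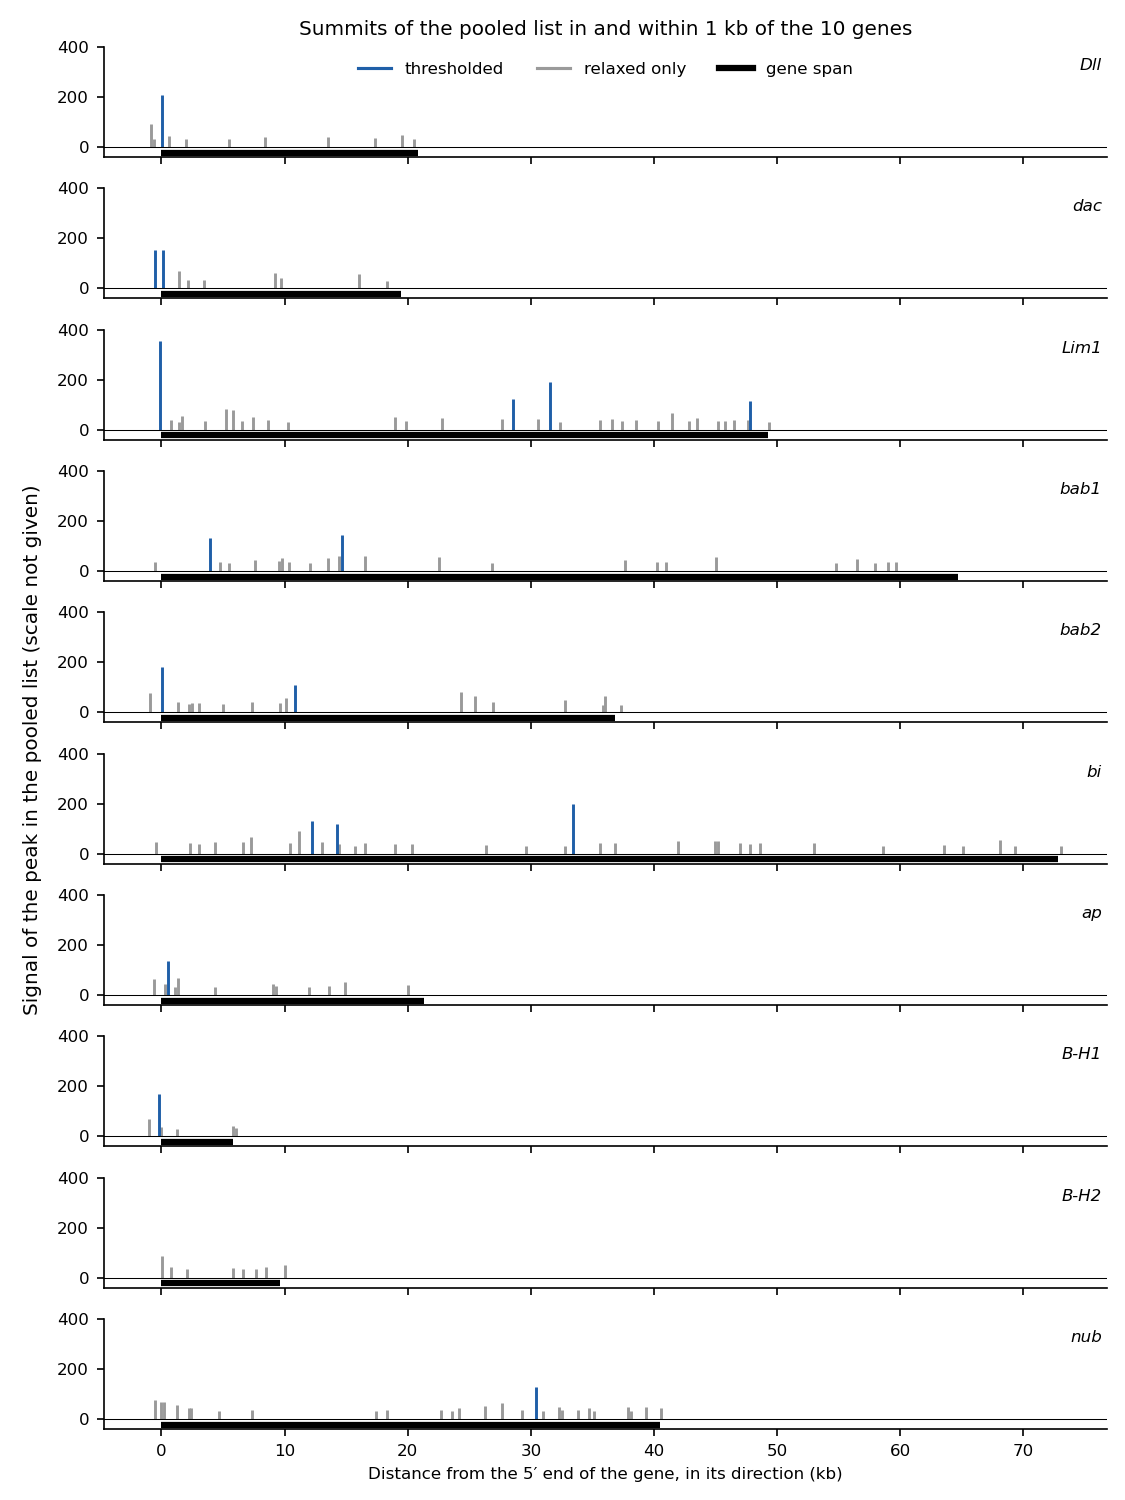
Peaks of the pooled list in each of the 10 genes, with the distance of the summit from the 5′ end of the gene on the horizontal axis (kb) and the authors' signal value on the vertical axis. Blue lines are the 17 thresholded summits, grey lines the 166 relaxed ones, and the black bar is the gene span. The tallest line, 355, stands at the 5′ end of Lim1, and B-H2 has grey lines only.

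The thresholded peaks of these genes were of middling to low strength. The signal is the authors' value for a peak, on a scale that is not given, and is used to describe and rank peaks within a list. It was 110 to 355 with a median of 145 over the 17 summits, against 106 to 2208 with a median of 170 over the thresholded list. The ranks were 371 to 2485 with a median of 1671. None was among the 300 strongest peaks, and 5 of 17 (29.4%, Wilson interval 13.3 to 53.1) had a signal above the median of the list. All 17 peaks were 364 bp wide.

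The strongest was at Lim1, a LIM homeodomain gene (FBgn0026411, X 8756539 to 8805804, minus strand). Its summit at 8805885 lay 81 bp upstream of the start site at the 5′ end, with a signal of 355 and rank 371 of the thresholded list. The same position ranked 158 in replicate 2 and 731 in replicate 3, the best rank of all the member summits in each replicate. In introns of Lim1 a summit at 8774236 had a signal of 189 (rank 1209 in replicate 2 and 1106 in replicate 3). Another at 8777280 had a signal of 123 (rank 2712 in replicate 2 and 1964 in replicate 3). The fourth, at 8757977, lay in the 3' UTR with a signal of 115, and here the replicates stood apart, at rank 1856 in replicate 2 and 5350 in replicate 3.

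Dll, the homeobox gene of distal limb fate (FBgn0000157, 2R 24814822 to 24835667, plus strand), had 1 thresholded summit, at 24814853, 31 bp inside its only annotated start site. Its signal was 207 at rank 943, with rank 671 in replicate 2 and 1418 in replicate 3, so it was among the strongest 2593 peaks of both. A relaxed summit 835 bp upstream of the start, at 24813987, had a signal of 93.4, the highest of the 166 relaxed summits that missed the thresholded list.

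At dac, which encodes a nuclear protein related to the Ski family (FBgn0005677, 2L 16466512 to 16485998, minus strand), the start site was flanked by a pair of summits of nearly equal strength. The one at 16485863, 135 bp inside the gene, had a signal of 154 with rank 919 in replicate 2 and 2240 in replicate 3. The one at 16486522, 524 bp upstream, had a signal of 154 with rank 827 in replicate 2 and 2865 in replicate 3. Both were stronger by rank in replicate 2. Upstream of dac were 4 further thresholded summits within 20 kb. One, with a signal of 221, was 377 bp upstream of the start site of Nepl8, and the other 3, with signals of 354, 294 and 147, lay within Tpr2. All 4 are over 1 kb from dac and were not counted for it.

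In bi, a T-box gene (FBgn0000179, X 4412856 to 4485647, plus strand), none of the 3 thresholded summits was at the 5′ end. The strongest, at 4446264, lay in an intron 33.4 kb from the 5′ end with a signal of 198 (rank 1622 in replicate 2 and 815 in replicate 3). The next, at 4425102, lay in an intron 2033 bp upstream of an internal start site with a signal of 130 (rank 1092 in replicate 2 and 4074 in replicate 3). The third, at 4427101, was 34 bp upstream of that start site with a signal of 118. It ranked 1222 in replicate 2 and had no summit of replicate 3 within 100 bp, the nearest being 115 bp away at rank 16146. All 3 also lie in lncRNA:CR32773, an RNA gene on the opposite strand that spans bi.

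The paralogues bab1 and bab2, which encode BTB domain proteins, differed in where their summits lay. In bab2 (FBgn0025525, 3L 1140429 to 1177276, minus strand) the stronger one was at 1177240, 36 bp inside the start site, with a signal of 180 (rank 774 in replicate 2 and 1984 in replicate 3). The weaker one, at 1166446 in an intron, had a signal of 110 (rank 3656 in replicate 2 and 2186 in replicate 3), the lowest of the 17 signals. In bab1 (FBgn0004870, 3L 1036369 to 1101089, minus strand) both summits were intronic. That at 1086432 had a signal of 145 (rank 1018 in replicate 2 and 2886 in replicate 3). That at 1097127 had a signal of 132 (rank 1543 in replicate 2 and 2633 in replicate 3). In the 37.3 kb between the extended spans of the paralogues there was no thresholded summit and there were 11 relaxed pooled ones. The strongest of these, at 1102859, was 1770 bp upstream of bab1 with a signal of 101, at rank 2739 of the pooled list.

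The Bar homeobox genes B-H1 and B-H2 are also neighbours. At B-H1 (FBgn0011758, X 17397478 to 17403278, plus strand) the thresholded summit at 17397287 was 191 bp upstream of the start site, with a signal of 168. It ranked 581 in replicate 2 and 3653 in replicate 3, whose summit was 99 bp away, just inside the 100 bp limit. At B-H2 (FBgn0004854, X 17314581 to 17324175, plus strand) the strongest pooled summit, at 17314645, was 64 bp inside the start site with a signal of 87.0 at rank 3371 of the pooled list, below the threshold. It ranked 4620 in replicate 2 and 2811 in replicate 3. Replicate 2 also had a summit at 17314473, 108 bp upstream of the B-H2 start site, at rank 2541 of its own list. The 71.3 kb between their extended spans held 34 relaxed pooled summits and no thresholded one, with signals of at most 61.8.

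At nub, a POU homeobox gene (FBgn0085424, 2L 12587625 to 12628135, plus strand), the thresholded summit at 12618022 was 323 bp upstream of an internal start site and 30.4 kb from the 5′ end. It had a signal of 129, with rank 1549 in replicate 2 and 3094 in replicate 3. The position is also within Ref2, a gene on the opposite strand. Its paralogue pdm2, which lies downstream, had no thresholded summit, and its strongest pooled summit, at 12678786, had a signal of 79.6. In the 27.0 kb between the extended spans of nub and pdm2, the strongest of 20 relaxed summits had a signal of 86.6 and lay 1071 bp upstream of pdm2.

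At ap, a LIM homeodomain gene (FBgn0267978, 2R 5706202 to 5727525, minus strand), the thresholded summit at 5727023 was 191 bp upstream of an internal start site, 502 bp from the 5′ end. Its signal was 138, with rank 716 in replicate 2. Replicate 3 had its nearest summit 143 bp away, at rank 1930, which the pooled list holds as a separate peak at rank 11472. Both replicates thus had a summit among their strongest 2593 near this start site, at different positions.

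**Figure D2:**
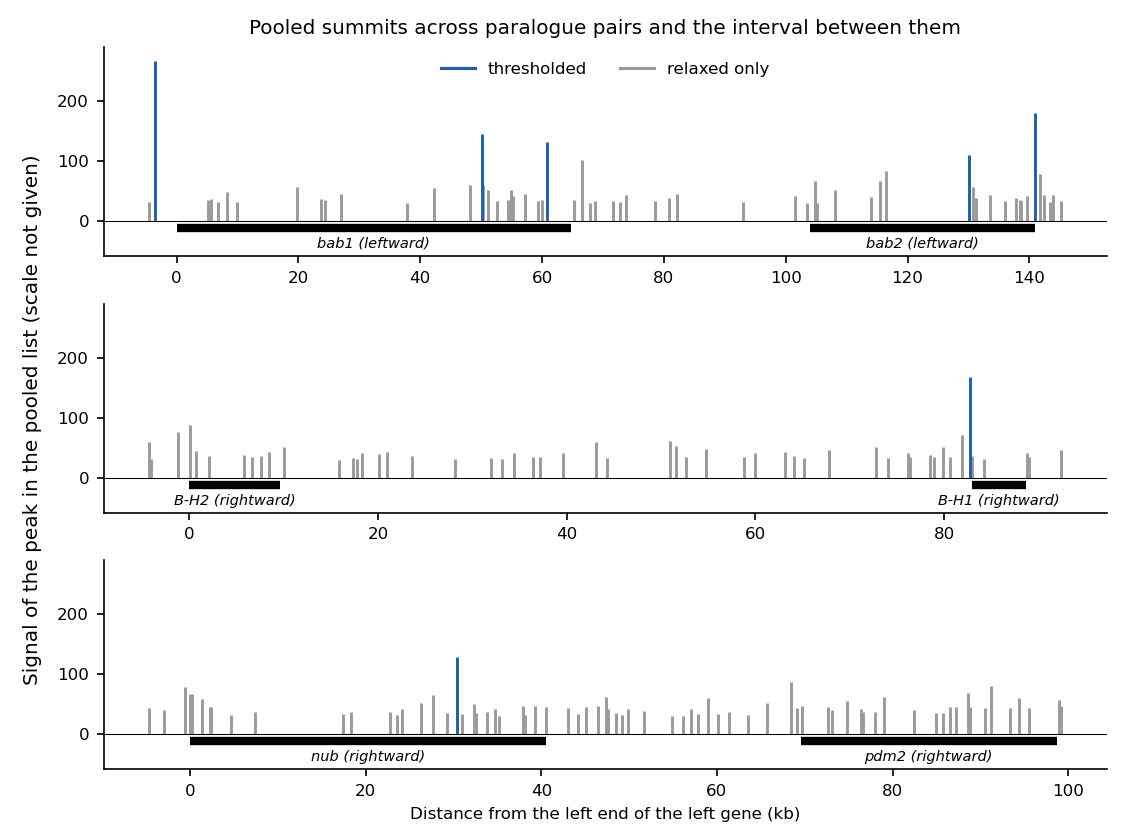
Pooled summits across bab1 and bab2, B-H2 and B-H1, and nub and pdm2, with distance from the left end of the left gene (kb) on the horizontal axis and the authors' signal value on the vertical axis. Blue lines are thresholded, grey lines relaxed only, and black bars are the genes with their direction of transcription. All blue lines between the outer ends of a pair lie in a gene or within 1 kb of it, and the intervals between hold grey lines only. The tall blue line left of bab1, 267, lies in trio.

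Promoters, defined as 500 bp on both sides of any annotated start site, held 8 of the 17 summits (47.1%, 95% Wilson interval 26.2 to 69.0), against 1059 of 2593 (40.8%) in the thresholded list. The interval includes the share of the list. Of the others, 7 lay in introns, 1 in a 3' UTR and 1 upstream of a gene. In all, 8 of the 10 genes (Dll, dac, Lim1, bab2, bi, ap, B-H1 and nub) had a thresholded summit within 500 bp of a start site of their own, against 15.5% of the protein-coding genes of the span range. That share was not computed for the longer of those genes alone. For Dll, dac, Lim1, bab2 and B-H1 this was the start at the 5′ end, and for bi, ap and nub it was an internal one. Of the 17 start sites annotated for the 10 genes, 8 had a thresholded summit within that distance. The share over all annotated start sites was not computed, so this count has no background beside it.

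The member summits ranked better in replicate 2 than in replicate 3. Of the 17, 15 were in both relaxed replicate lists within 100 bp and 17 were within 200 bp. Of the 15, 11 had the better rank in replicate 2 and 4 (2 in Lim1 and 1 each in bi and bab2) in replicate 3. In the thresholded list the balance lay the other way, with 1026 better in replicate 2 and 1405 in replicate 3, of 2440 in both lists. Among the strongest 2593 peaks of each replicate, 15 member summits were in the list of replicate 2 (88.2%, list share 81.7%) and 8 in that of replicate 3 (47.1%, Wilson interval 26.2 to 69.0, list share 85.7%). Both lists held 6 of them (35.3%, Wilson interval 17.3 to 58.7), against 69.3% of all thresholded peaks. Across the 15 summits, Spearman's rho between the ranks was 0.12, against 0.67 over 2440 thresholded peaks. These are descriptions, in which summits of 1 gene share a locus and the members cover a narrower range of ranks than the list. The member summits are also weaker than the list, with 5 of 17 above its median signal and none among its 300 strongest. No comparison with peaks of like strength was made, so the part of peak strength in these shares was not tested.

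With the strongest 2593 peaks of replicate 2 alone, all 10 genes had a summit (19 summits), against 33.2% of protein-coding genes of the span range. With those of replicate 3 alone 6 genes had one (Dll, dac, Lim1, bab2, bi and ap, 9 summits), against 33.3%. Neither share was computed for the longer genes of the span range alone. B-H1, B-H2, bab1 and nub were the genes with a summit in the first of these lists and none in the other, with best ranks in replicate 3 of 3653, 2811, 2633 and 3094, so bab1 missed it narrowly. The depth of the libraries is unknown, and its part in this difference was not tested.

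**Figure D3:**
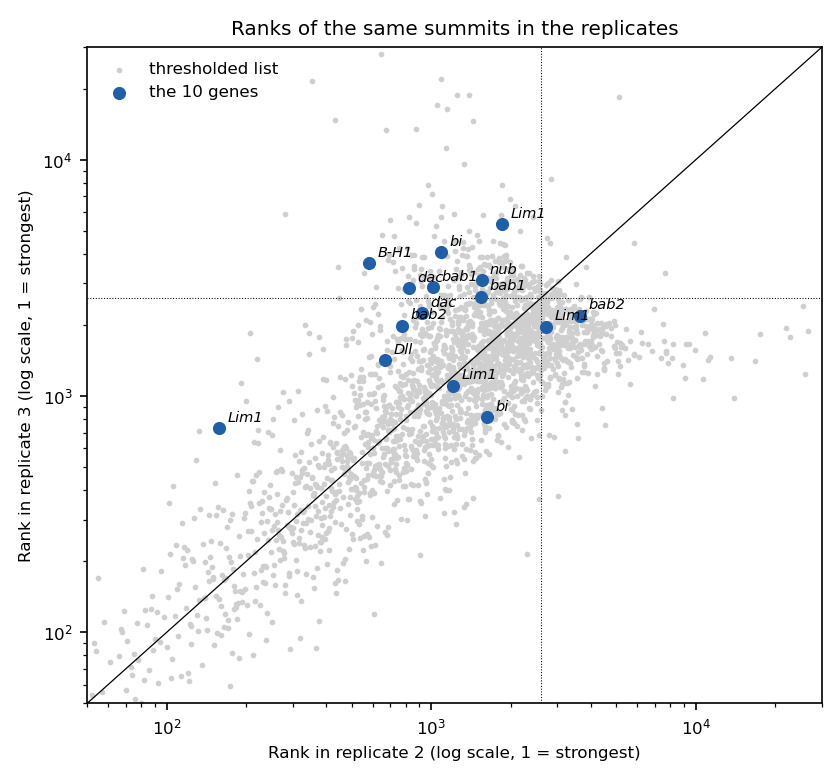
Rank of each thresholded summit in replicate 2 (horizontal) and replicate 3 (vertical), both on log scales from rank 50, for the 15 summits of the 10 genes found in both lists (blue, named by gene) and for the thresholded list (grey). The solid line marks equal ranks and the dotted lines rank 2593. Of the blue points, 11 lie above the solid line, on the side of replicate 2.

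The 10 genes were densely covered in the relaxed lists, which include the thresholded summits. All 10 had relaxed pooled summits, from 6 in B-H1 to 35 in bi, and 81.6% of the protein-coding genes of the span range had at least 1. Per length, the members held 3.60 (bab1) to 7.69 (B-H1) relaxed pooled summits per 10 kb, with a median of 4.98, against a median of 2.04 and a 75th percentile of 3.33 over the 2911 protein-coding genes of the span range. All 10 were above that percentile. In replicate 2 alone the members had 2.57 (ap) to 9.77 (dac) per 10 kb with a median of 6.20, against 2.03, and in replicate 3 alone 2.79 (dac) to 4.94 (nub) with a median of 3.73, against 2.18. All 10 were above the median of the span range in each replicate, and 7 were above the 75th percentile in each. The density was higher in replicate 2 than in replicate 3 for 8 genes and lower for bab2 and ap. A relaxed list is cut at a fixed length and holds background as well as binding.

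**Figure D4:**
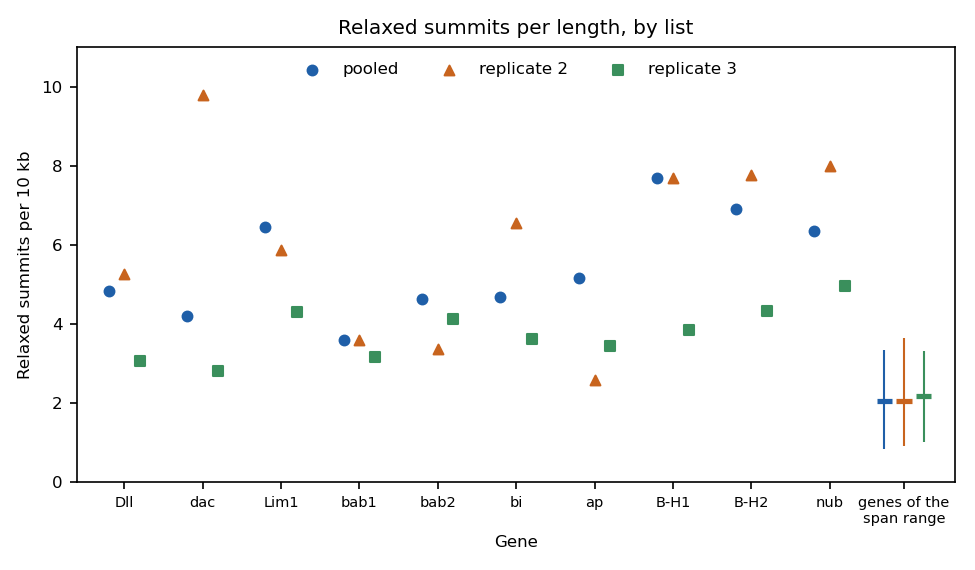
Relaxed summits per 10 kb of gene span extended by 1 kb, for each of the 10 genes in the pooled list (blue circles), replicate 2 (orange triangles) and replicate 3 (green squares). At the right, short bars are the medians of 2911 protein-coding genes of the same span range and thin lines their 25th to 75th percentiles. Every gene lies above the median in all 3 lists, and dac differs most between the replicates, at 9.77 and 2.79.

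The relaxed summits of the 10 genes passed the threshold about as often as others. The thresholded ones were 17 of 183 (9.29%), against 8.64% of the pooled list. The 166 relaxed ones had signals of 30.3 to 93.4 with a median of 39.4. They lie below the weakest thresholded peak by construction, since the thresholded list is the 2593 strongest pooled peaks. Introns held 128 of the 183 (69.9%, list 43.8%), promoters 20 (10.9%, list 17.5%) and coding exons 15 (8.20%, list 4.96%), shares that follow in part from counting summits only in and beside genes. Of the 183, 118 had a summit of replicate 2 within 100 bp, 107 one of replicate 3 and 59 (32.2%, list 33.2%) one of both.

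The DNA around the member summits was richer in G and C than that of the list. In the 200 bp around the summit the G and C content was 32.5% to 62.5% with a median of 47.0% over the 17 summits, against a median of 34.5% over 2593 thresholded peaks. Of the 17, 15 were above that median, and 9 were above the 90th percentile of the list, 46.0%, which 9.80% of the list exceeds. The highest values were at promoters. They were 62.5% at bi, 62.0% at Lim1, 61.5% at B-H1, 60.5% at ap and 59.5% at Dll. The 8 promoter summits had 45.0% to 62.5%, 5 of them at 59.5% or more, against a median of 34.5% for the 1059 promoter summits of the list, and the other 9 had a median of 41.0%, against 35.0% for the other 1534. The G and C content differed with the rank in the replicates. The 11 member summits with the better rank in replicate 2 had a median of 49.5% and the 4 with the better rank in replicate 3 had 37.5%. Those 4 all lay in introns, while the 11 included promoter summits, so this split is mixed with genomic class. In the list these medians were 35.0% and 34.5%. The part of base composition in the ranks of the replicates was not tested.

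**Figure D5:**
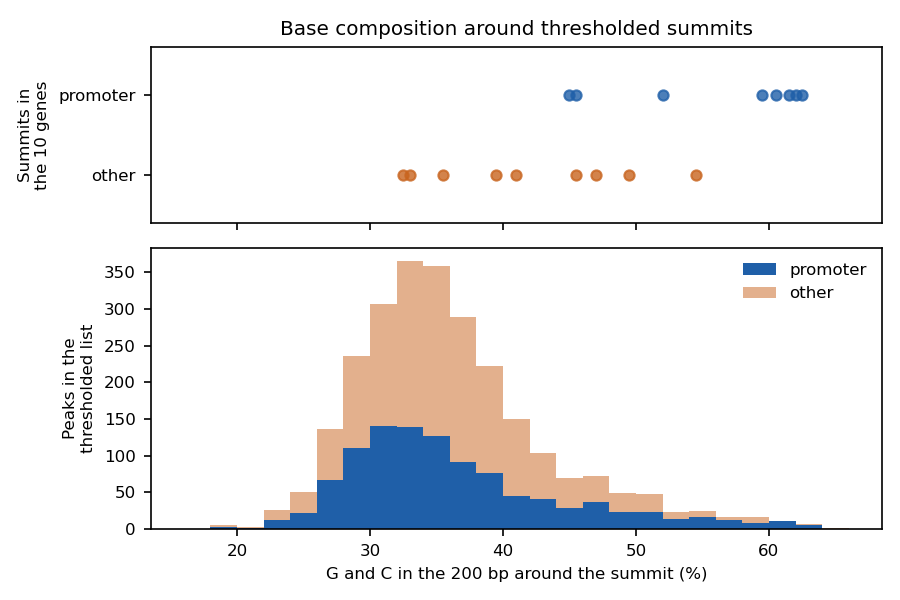
G and C content of the 200 bp around thresholded summits (horizontal axis, %), for the 17 summits of the 10 genes (top, 1 point a summit, promoters above and others below) and for the 2593 peaks of the thresholded list (bottom, number of peaks per bin, promoters in blue and others in orange). The promoter points lie at 45.0% to 62.5%, to the right of most of the list.

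Repeats were present in several of these windows. The GAGA repeat (GAGAGAG) matched in 5 of 17 (29.4%, 95% Wilson interval 13.3 to 53.1), 1 each at dac, Lim1 and B-H1 and 2 at bi, against 4.44% of the list. The GT repeat (GTGTGTGT) also matched in 5 (29.4%), 2 of them at bi and 1 each at dac, Lim1 and nub, against 2.89%. The intronic bi summit at 4425102 and the promoter summit of bi held both, and 8 of 17 windows held at least 1 of these repeats (47.1%), against 6.94% of the list. In flies both repeats, and the Pho core, are known from Polycomb response elements, the sites where Polycomb proteins are recruited. The Pho core (GCCAT) matched in 7 of 17 (41.2%, Wilson interval 21.6 to 64.0), against 26.8%.

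These repeats went with base composition in the list as well. Among the thresholded peaks with at least 47.0% G and C, 16.9% of 243 held the GAGA repeat and 11.1% the GT repeat, against 3.15% and 2.04% of the 2350 below. Of the 9 member windows at or above 47.0%, 5 held the GAGA repeat and 4 the GT repeat. Of the 11 member summits with the better rank in replicate 2, 7 held either repeat, and of the 4 with the better rank in replicate 3 none did. In the list the shares were 9.45% and 4.70%. The 4 were all intronic, while the 11 included promoter summits. With windows of 100 bp the GAGA repeat matched in 4 member windows (list 1.58%) and the GT repeat in 5 (list 1.04%), and with windows of 400 bp each matched in 6 (list 13.5% and 9.53%).

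The other motifs were rare or at the share of the list. The homeodomain core (TAATTA) matched in 2 of 17 windows (11.8%, list 16.7%), the intronic summits of Lim1 at 8774236 and of bi at 4446264. No other summit away from a promoter had a higher signal than these. GATAAG matched in 2, both in introns of bi (11.8%, against 260 of 2593 in the list), and TGANTCA in 1 (5.88%, list 4.74%), at Lim1. TATCGATA and CAGGTAG matched in none of 17, which allows a share of up to 18.4% (Wilson), against 1.08% and 0.733% of the list. A match says only that the letters are present.

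Of 55 other genes of limb patterning, 29 (52.7%, 95% Wilson interval 39.8 to 65.3) had a thresholded summit. The share was 13.2% over all annotated genes and 33.2% over the protein-coding genes of the members' span range. These 55 genes are shorter than the members, at a median of 13.7 kb. Their spans, 2054 (Doc3) to 132008 bp (hth), run outside the members' range, and no share matched to their lengths was computed, for the whole or for the groups below. Among the signals it was 4 of 7, led by spi, an Egfr ligand (signal 611), wg (567) and dpp (338), ligands of the Wnt and BMP pathways, and vn (272), another Egfr ligand. Of the receptors and transducers it was 3 of 6, N (433), ptc (173) and Egfr (129). Of the proximal and early factors it was 4 of 9, esg (268), hth (176), a homeobox gene of proximal fate, disco-r (156) and disco (111). Of the leg medial and tarsal factors it was 5 of 12, with bowl (399), ct (204), drm (145) and zfh2 (115) the strongest. Of the wing factors it was 13 of 21, with caup (274), mirr (241), Bx (194), which encodes a LIM-only partner in the ap pathway, and inv (190) the strongest. For 3 of the genes named here the strongest summit had a start site of another gene as the nearest, CG18508 for N, lncRNA:CR44281 for ptc and mad2 for vn.

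The relaxed pooled density of these 55 genes had a median of 6.49 per 10 kb, above the 4.98 of the 10 members, so dense coverage was not confined to the members. No relaxed pooled summit was found in 4 of the 55, exd, smo, ci and Chi. Their spans are short, at 2406 (Chi) to 9332 bp (ci), against a median of 13.7 kb over the 55. Other genes of like length did hold relaxed pooled summits, such as odd (2533 bp) with 7 and al (9328 bp) with 4. The part of length was not tested. Of the protein-coding genes of the members' span range, 81.6% had at least 1 relaxed pooled summit. With the strongest peaks of replicate 2 alone 38 of the 55 genes had a summit and with those of replicate 3 alone 28. Of the 10 members 10 and 6 had one, and of the protein-coding genes of the members' span range 33.2% and 33.3%.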

How the data were processed

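Whole Jing-GFP embryos (2 biological replicates, 1 group) were assayed by ChIP-seq. Per the labels, chromatin was sonicated to 200 to 800 bp. Per the readme texts deposited with the samples, the relaxed lists are dm6 peaks and background meant as input to the irreproducible discovery rate method, derived from the alignments of 1 or both replicates and 1 further file, and the thresholded list is its optimal output. No source used here names the aligner or the peak caller. For each deposited peak the narrowPeak columns give a signal value, whose scale is not stated, and a −log10 q-value. The lowest deposited −log10 q-value of a thresholded member summit was 2.11. The 166 relaxed member summits below the threshold had values of 0.0779 to 1.56. The thresholded list held exactly the 2593 strongest pooled peaks.

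The 10 members, the lists and the motifs were chosen with earlier results of these data known. Genes and start sites came from Ensembl release 115 without transposable elements, and sequence from RefSeq Release 6. All 10 member spans matched the RefSeq gene table, and no summit lay beyond an arm. Of the 55 other genes 1 (Dl, Delta) was matched through an older symbol. Summits were classed as promoter (500 bp), UTR, exon, intron or intergenic, and matched between lists within 100 bp. Named were all thresholded summits of members, the strongest relaxed one of a member without any, genes that share a member summit, the paralogue pairs, and at most 4 genes in each group of other genes, the strongest by signal; near-threshold and flanking summits were named after their values were seen. No test between samples was possible with 1 group, and none was made between genes. Wilson intervals (95%) cover counting error only and treat neighbouring peaks as independent, which they are not. Library depth is unknown. Steps were tested on simulated data. Alternatives were other span extensions, a stricter list, merging of summits, the nearest start site, other distances and windows, and each replicate left out. Intervals between paralogues, flanks, G and C content and its subsets were described after seeing the data. Software was scipy 1.17.1, pandas 2.3.3, numpy 2.4.6 and matplotlib 3.10.9 under Python 3.11.15.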

Additional observations from a re-analysis of the deposited data

How the results depend on the processing

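Counts stayed within 1.5 times, shares within their interval and the density within 1 SD between replicates in 27 of 31 settings of the main results. Among peaks above the median signal 4 members had a summit, with 5 summits in all. Without replicate 2 the summits numbered 9 and without replicate 3 they numbered 19, and 6 and 10 members had one. The fall from 9 members to 6 lay exactly at the limit of 1.5 times and was counted as within it. Matching against only the strongest 2593 per replicate left 6 of the 17 member summits in both lists. Without extension of the span 8 members and 14 summits remained counted, since the B-H1, Lim1 and upstream dac summits lie before the gene, and with 5 kb there were 9 and 19. Merging and the nearest start site each gave 9 and 17. The promoter share was 41.2% with 250 bp and 52.9% with 1000 bp, and 52.6% to 55.6% when a replicate was left out. The median density was 3.73 to 6.20 per 10 kb when a replicate was left out. The SD used as its limit, 1.75, was taken from these same 2 medians. Leaving out a replicate could thus hardly exceed it, and these settings among the 27 show no stability. The promoter share was judged against an interval of 26.2% to 69.0% from 17 summits. That interval is so wide that those settings show little about stability either. At least 1 motif matched in 11 windows of 100 bp, 12 of 200 bp and 15 of 400 bp. Of 86 settings of single genes and motifs 20 moved by more than 1.5 times, 8 of them among peaks above the median signal. No paired analysis was possible because there is only 1 group. With 17 summits the intervals are wide, and a peak list without counts gives no depth.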
